A study of Mus musculus with 2 samples.

Results

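The miR-181 family was examined in microRNA libraries of the mouse adrenal gland. Its 6 genes lie in 3 clusters of 2 genes, and they were chosen by name in the GENCODE M21 annotation and matched by Ensembl identifier, with no use of their counts. They make up 6 of the 2202 microRNA genes in the deposited count tables, and each had reads in both libraries. The tissue was the adrenal gland of 36-day-old males of B6CASTF1/J, an F1 hybrid of C57BL/6J and CAST/EiJ, and each of 2 animals gave 1 library (biological replicates 1 and 2 of the labels). The labels give the animals separate numbers and a single donor record, and name no treatment, so these libraries form 1 group and no comparison between conditions was made. The effect of CAST/EiJ alleles on counts aligned to the C57BL/6J genome was not tested.

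MicroRNAs are cut from hairpin precursors into a 5p arm and a 3p arm, and the bases near the start of an arm, its seed, pair with messenger RNAs. Members of the miR-181 family share the seed of their 5p arm and so are predicted to share targets. The family is known from the thymus, where miR-181a tunes the sensitivity of the T cell receptor, from endothelium, where miR-181b dampens NF-kappaB signalling, and from brain.

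The 5p arms are shown first because they decide which reads can be placed at which gene. Sequences are from RefSeq (GRCm38.p6), which held mature arms for all 6 genes, and capitals mark bases 2 to 8, the seed.
miR-181a-5p: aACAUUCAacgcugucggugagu
miR-181b-5p: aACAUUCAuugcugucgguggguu
miR-181c-5p: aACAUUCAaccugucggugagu
miR-181d-5p: aACAUUCAuuguugucggugggu
Of 1738 mature arms in that table, 6 held this seed (ACAUUCA) and all of them belonged to the 6 miR-181 genes. miR-181a-5p is the product of both Mir181a-1 and Mir181a-2, and miR-181b-5p that of both Mir181b-1 and Mir181b-2. Each of these arms was found letter for letter in 2 of the 2202 annotated hairpins, whereas miR-181c-5p and miR-181d-5p were each found in 1. Counted from base 1 at the 5′ end, miR-181d-5p differed from miR-181b-5p by C12U and was 1 base shorter. miR-181c-5p could be turned into miR-181a-5p by 1 edit, a single added base.

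The 3p arms, by contrast, tell all 6 genes apart, and each was found in 1 hairpin. Capitals again mark bases 2 to 8.
miR-181a-1-3p: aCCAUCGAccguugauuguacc
miR-181a-2-3p: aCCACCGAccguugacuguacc
miR-181b-1-3p: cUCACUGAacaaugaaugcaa
miR-181b-2-3p: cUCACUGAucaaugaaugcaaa
miR-181c-3p: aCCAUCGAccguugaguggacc
miR-181d-3p: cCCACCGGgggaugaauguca
From miR-181a-1-3p to miR-181a-2-3p the changes were U5C and U16C, and from miR-181a-1-3p to miR-181c-3p they were U16G and U19G. miR-181b-1-3p differed from miR-181b-2-3p by A9U and by 1 base of length. The seed of miR-181a-1-3p (CCAUCGA) is that of miR-181c-3p as well, and both miR-181b 3p arms share UCACUGA. No arm of a gene outside the family held any of the 3p seeds.

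The hairpins of the duplicated genes show how far their copies stay identical. Capitals mark the unbroken run around the 5p arm that is the same in both copies.
Mir181a-1: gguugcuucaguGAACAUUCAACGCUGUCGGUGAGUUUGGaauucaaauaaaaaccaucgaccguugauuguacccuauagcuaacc
Mir181a-2: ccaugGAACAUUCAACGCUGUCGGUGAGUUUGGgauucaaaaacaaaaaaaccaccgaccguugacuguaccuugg
Mir181b-1: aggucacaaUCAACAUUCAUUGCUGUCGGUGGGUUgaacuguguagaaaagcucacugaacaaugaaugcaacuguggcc
Mir181b-2: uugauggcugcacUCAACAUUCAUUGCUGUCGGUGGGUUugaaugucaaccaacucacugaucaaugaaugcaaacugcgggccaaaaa
The run is 28 bases in the miR-181a copies, with 1 shared base before the arm and 4 after it. In the miR-181b copies it is 26 bases, with 2 shared bases before the arm and 0 after it. A read equal to miR-181a-5p or miR-181b-5p thus matches both copies and cannot be placed at one of them by its sequence. The deposited tables keep reads that map to several places in a row of their own, outside every gene. That row held 29.8% of all reads in replicate 1 and 21.5% in replicate 2, and how many of these came from the miR-181 family is not given by the counts. The tables count reads per hairpin, so the arm from which a counted read came is not given either.

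**Figure D1:**
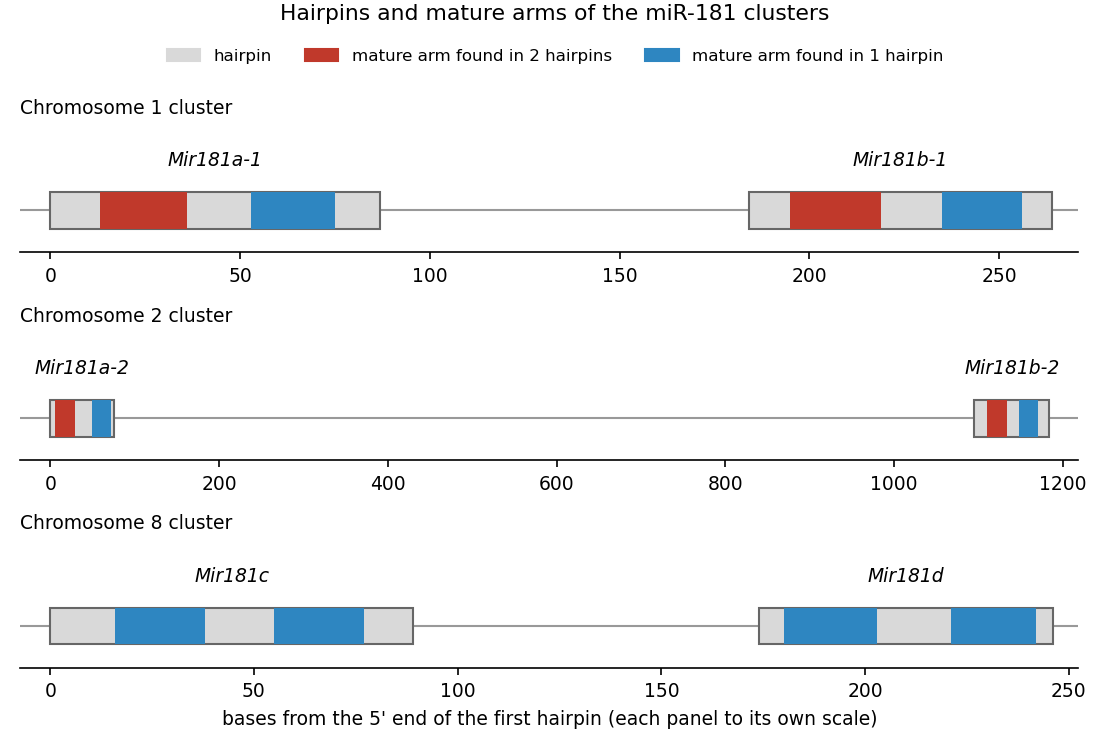
Map of the 3 miR-181 clusters, each drawn to its own scale in bases from the 5′ end of its first hairpin (horizontal axis). Grey boxes are hairpins, red boxes mature arms found in 2 hairpins and blue boxes mature arms found in 1 hairpin; the 5p arms of the chromosome 1 and chromosome 2 genes are the shared ones.

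In mm10 (GRCm38), the first cluster lies on the plus strand of chromosome 1, with Mir181a-1 (ENSMUSG00000065565.1) from 137966455 to 137966541 and Mir181b-1 (ENSMUSG00000065458.1) from 137966639 to 137966718, 97 bases apart. Both lie in an intron of the noncoding transcript Gm4258 on the same strand and in introns of the lincRNA Gm26936 on the opposite strand. All 80 bases of Mir181b-1 and the last 11 of Mir181a-1 also lie in the single annotated exon of the lincRNA A430106G13Rik. The second cluster is on the plus strand of chromosome 2, with Mir181a-2 (ENSMUSG00000065423.1) from 38852735 to 38852810 and Mir181b-2 (ENSMUSG00000065578.1) from 38853830 to 38853918, 1019 bases apart. It lies opposite to an intron of Nr6a1, an orphan nuclear receptor gene, and Mir181b-2 lies opposite to an exon of the unclassified transcript Gm44144. The third is on the minus strand of chromosome 8, with Mir181c (ENSMUSG00000065483.2) from 84178873 to 84178961 and Mir181d (ENSMUSG00000076338.1) from 84178716 to 84178787, 85 bases apart. Both lie in an intron of 1 annotated transcript of Nanos3 on the same strand, a protein-coding gene known from germ cells.

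Replicate 1 had 12289288 reads, of which 4494857 were counted on the sense strand of microRNA genes, and replicate 2 had 10323816 and 2078824. Levels are given as CPM, the sense counts of a gene scaled so that all genes of a library sum to 1000000. Counting intervals are exact 95% intervals, and they cover counting error only, not differences between animals or libraries. PCR copies of a molecule were not marked, so reads may not be independent and the intervals may be too narrow. The libraries stood apart in markers of other tissues. Summed over their lists, the pancreas acinar genes Mir216a, Mir216b and Mir217 had 0 CPM in replicate 1 and 326 CPM in replicate 2. The 5 miR-200 genes of epithelium had 64.7 and 3576 CPM, the erythroid genes Mir144, Mir451a and Mir486 had 15841 and 1091 CPM, and the liver gene Mir122 had 1383 and 2842 CPM. The 4 neuroendocrine genes, chosen for the adrenal medulla, had 48802 and 54157 CPM with none at 0, most of it Mir375 at 44147 and 51780 CPM. In the smooth muscle and pericyte pair, Mir143 had 45048 and 26224 CPM and Mir145a had 1564 and 3998 CPM. Counts and CPM of each miR-181 gene are therefore given for each library. Ranks by level, sums of copies and the comparison by shared arms use the mean of both.

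The chromosome 8 genes held most of the miR-181 counts, the chromosome 2 cluster held less and the chromosome 1 cluster the least, in both libraries. The 6 genes together had 14579 counts or 3243 CPM in replicate 1 and 4906 counts or 2360 CPM in replicate 2, a mean of 2802 ± 625 CPM (SD, n = 2). That was 0.324% of the gene counts of replicate 1 (interval 0.319 to 0.330) and 0.236% of those of replicate 2 (0.229 to 0.243). Mir181c and Mir181d supplied 82.9% of the family's counts in replicate 1 (82.3 to 83.5) and 86.3% in replicate 2 (85.4 to 87.3). The chromosome 2 cluster supplied 13.9% (13.4 to 14.5) and 11.6% (10.7 to 12.5), and the chromosome 1 cluster 3.15% (2.87 to 3.44) and 2.06% (1.68 to 2.50). The genes whose 5p arm is found in a single annotated hairpin are the chromosome 8 pair, so these shares describe counts that could be placed, not the output of the 3 clusters.

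**Figure D2:**
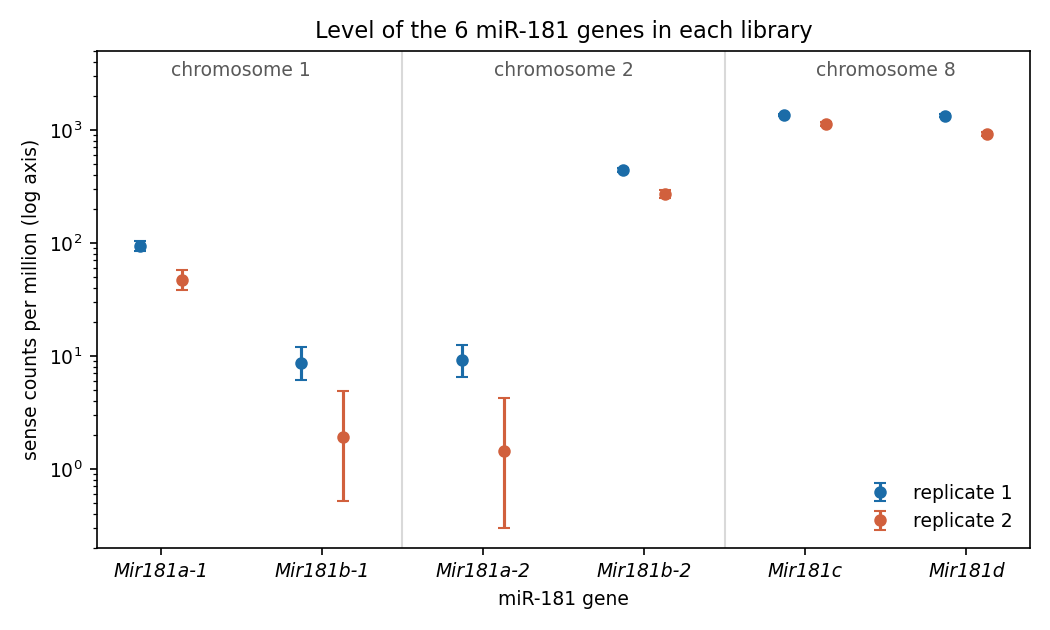
The sense CPM (log axis) of each miR-181 gene in replicate 1 (blue) and replicate 2 (orange), with exact 95% counting intervals. Mir181c and Mir181d lie highest, from 919 to 1353 CPM, Mir181b-2 and Mir181a-1 lie between, and Mir181b-1 and Mir181a-2 lie below 10 CPM in both libraries; the replicate 2 point is the lower one for every gene.

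Mir181c was the highest member, with 6081 counts or 1353 CPM (interval 1319 to 1387) in replicate 1 and 2325 counts or 1118 CPM (1073 to 1165) in replicate 2. Its mean of 1236 ± 166 CPM (SD, n = 2) gave it rank 76 among the 2202 genes. Mir181d, its partner in the cluster, had 6007 counts or 1336 CPM (1303 to 1371) and 1911 counts or 919 CPM (879 to 961), a mean of 1128 ± 295 CPM at rank 79. The order of these neighbours was not resolved. Mir181c counts were 1.01 times those of Mir181d in replicate 1 (0.977 to 1.05) and 1.22 times in replicate 2 (1.14 to 1.29), and the difference between the means was smaller than either SD. A read of a microRNA library covers an arm and not a piece of a long transcript, so counts were not divided by length. With division by hairpin length, scaled to the median hairpin, the same means became 1236 for Mir181c and 1394 for Mir181d, which reverses their order.

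Mir181b-2 was the highest of the genes with a shared 5p arm. It had 1991 counts or 443 CPM (424 to 463) in replicate 1 and 566 counts or 272 CPM (250 to 296) in replicate 2, a mean of 358 ± 121 CPM at rank 126. Mir181d stood 3.02 times above it in replicate 1 (2.87 to 3.18) and 3.38 times in replicate 2 (3.07 to 3.71). Mir181a-1 followed with 420 counts or 93.4 CPM (84.7 to 103) and 97 counts or 46.7 CPM (37.8 to 56.9), a mean of 70.1 ± 33.1 CPM at rank 218. Mir181b-2 exceeded it 4.74-fold in replicate 1 (4.26 to 5.28) and 5.84-fold in replicate 2 (4.70 to 7.31), so this step in the order held in each library.

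Mir181a-2 and Mir181b-1 were the lowest members, at or next to the detection floor of 3 counts in replicate 2 (1.44 CPM) and above it in replicate 1 (0.667 CPM). Mir181a-2 had 41 counts or 9.12 CPM (6.55 to 12.4) in replicate 1 and 3 counts or 1.44 CPM (0.298 to 4.22) in replicate 2. Mir181b-1 had 39 counts or 8.68 CPM (6.17 to 11.9) and 4 counts or 1.92 CPM (0.524 to 4.93). Their order was not resolved, since Mir181a-2 had 1.05 times the counts of Mir181b-1 in replicate 1 (0.661 to 1.67) and 0.750 times in replicate 2 (0.110 to 4.43).

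Partners of a cluster, which lie within one primary transcript where they are transcribed together, were at near-equal counts on chromosome 8 only. On chromosome 1, Mir181a-1 had 10.8 times the counts of Mir181b-1 in replicate 1 (7.75 to 15.4) and 24.3 times in replicate 2 (9.17 to 90.8). On chromosome 2 it was the miR-181b gene that was higher, with Mir181b-2 at 48.6 times Mir181a-2 in replicate 1 (35.7 to 67.9) and 189 times in replicate 2 (64.2 to 918). The higher partner was thus a miR-181a gene in one duplicated cluster and a miR-181b gene in the other, in both libraries. Each gene on chromosomes 1 and 2 has a mature arm found in 2 hairpins, and reads equal to that arm cannot be placed by sequence. On chromosome 8 each mature arm is found in 1 hairpin. The contrast between clusters is therefore between counts that could be placed, and whether partners differ in output was not tested.

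The copies of one 5p arm were uneven as well. Mir181b-2 had 51.1 times the counts of Mir181b-1 in replicate 1 (37.2 to 72.0) and 142 times in replicate 2 (55.0 to 521). Mir181a-1 had 10.2 times the counts of Mir181a-2 in replicate 1 (7.42 to 14.5) and 32.3 times in replicate 2 (10.7 to 160). These ratios are between counts that could be placed at one locus. Families of numbered copies were compared where RefSeq listed an identical arm under the symbol of every copy. Among the 39 families found in this way, miR-181b ranked 7 by summed level at 363 ± 125 CPM, and miR-181a ranked 13 at 75.3 ± 38.5 CPM. The let-7a copies are not in this set, so the ranks hold within it only. The 3 highest of the 39 were let-7f, let-7c and miR-16. In the 15 of these families that reached 100 counts in both, the copy with the most counts held a median of 85.5% of its family in replicate 1 and 83.8% in replicate 2. Mir181b-2 held 98.1% and 99.3% of the miR-181b counts, ranks 1 and 2 of 15, and Mir181a-1 held 91.1% and 97.0% of the miR-181a counts, ranks 6 and 4.

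The split of the family by shared arms was set beside that of all genes, as a description. Of 1018 genes with a RefSeq arm, 904 share none with another hairpin, among them Mir181c and Mir181d. Another 61 genes share some of their arms, among them the other 4 miR-181 genes, and the remaining 53 share all. Over all genes of a class, the median level was 0.463 CPM with no shared arm, 14.9 CPM with some and 0 CPM with all shared. Over the genes that reached 10 counts in both libraries, which were 258, 37 and 6, it was 242, 54.7 and 32.5 CPM, so the order of the first 2 classes depends on that minimum. Mir181c and Mir181d lay above both medians of their class, and so did Mir181b-2 and Mir181a-1 of theirs, whereas Mir181a-2 and Mir181b-1 did not reach the minimum and lay below 14.9 CPM.

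**Figure D3:**
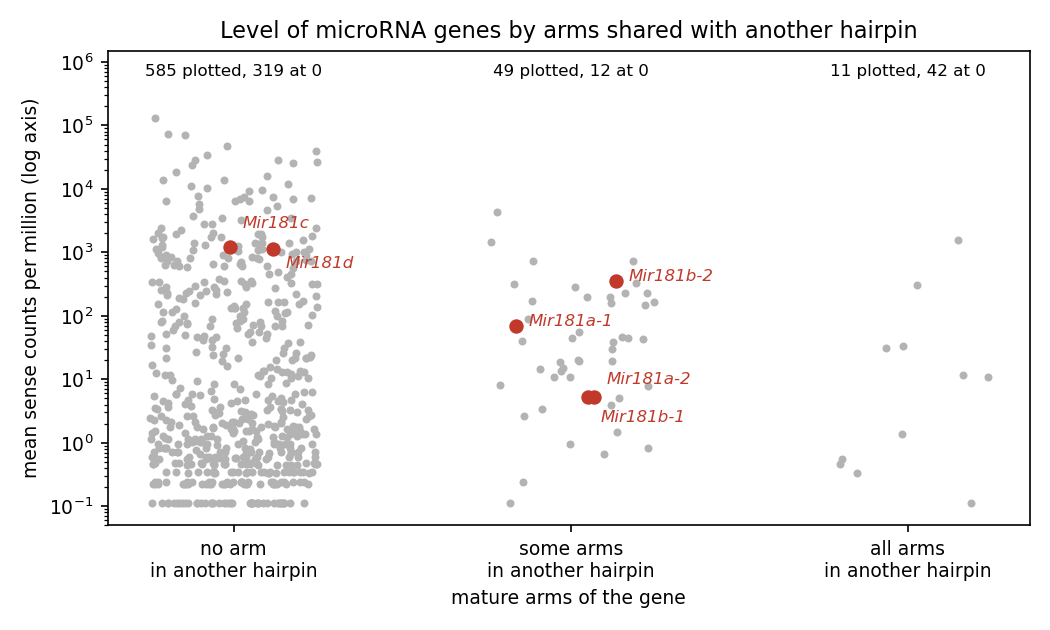
Mean sense CPM over both libraries (log axis) of each microRNA gene with a RefSeq mature arm, in columns by whether none, some or all of its arms occur in another hairpin, with miR-181 genes in red. Sideways position within a column is random, genes with 0 counts are given as a number only (319, 12 and 42), and Mir181c and Mir181d sit in the first column above the 4 members in the second.

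Between the libraries, all 6 genes had the lower value in replicate 2, and the 4 with enough counts to be tested differed beyond counting error. Log2 ratios are of replicate 2 to replicate 1 after TMM scaling in edgeR. The 333 genes that reached 10 counts in both were tested one by one (exact binomial, two-sided, Benjamini-Hochberg adjustment over all 333), which covers counting error only and compares these 2 libraries. Of these genes, 49.8% had a log2 ratio below 0. At an adjusted p under 0.05, 78.1% were called different and 38.7% were called lower in replicate 2. The 4 tested miR-181 genes were all among the latter, with a median log2 ratio of -0.81 against 0.01 over all genes tested.

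The difference was smallest for Mir181c. This gene had a log2 ratio of -0.46 (counting interval -0.53 to -0.39; exact binomial adjusted p = 3.02e-40) and Mir181d of -0.73 (-0.80 to -0.65; exact binomial adjusted p = 1.51e-87). These intervals did not overlap. With a linear correction for hairpin GC content, which is 58.4% in Mir181c and 51.4% in Mir181d, they became -0.67 (-0.74 to -0.60) and -0.75 (-0.82 to -0.67) and did overlap. Mir181b-2 had a log2 ratio of -0.89 (-1.02 to -0.75; exact binomial adjusted p = 1.32e-41) and Mir181a-1 of -1.19 (-1.52 to -0.87; exact binomial adjusted p = 8.63e-15). The interval of Mir181b-2 overlapped those of both Mir181d and Mir181a-1. Mir181b-1 and Mir181a-2 were below the count minimum in replicate 2 and were not tested, with log2 ratios of -2.36 (-4.30 to -0.89) and -2.85 (-5.18 to -1.20). Set against the general difference between these libraries, none of the 4 passed. An edgeR exact test, with its dispersion estimated from the same 2 libraries (biological coefficient of variation 52.7%), gave each an adjusted p of 0.988 and called 0.601% of the 333 genes. That dispersion already holds the difference under test, so this result cannot decide whether the 4 genes differ.

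**Figure D4:**
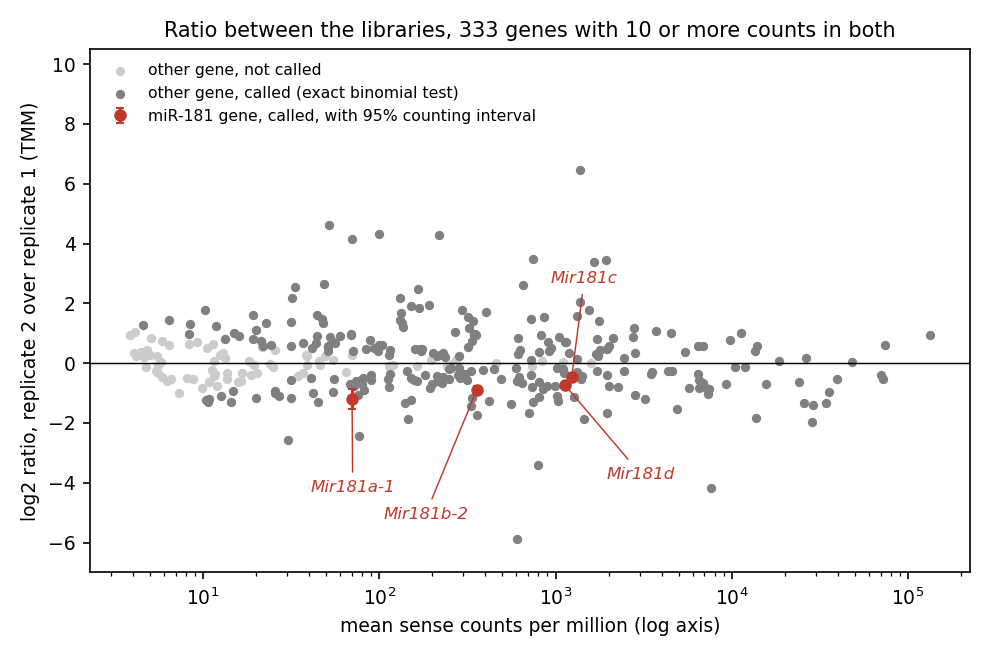
Log2 ratio of replicate 2 over replicate 1 after TMM scaling (vertical axis) against mean sense CPM (log axis) for the 333 genes that reached 10 counts in both. The 4 tested miR-181 genes (red, with exact 95% counting intervals) lie below 0, between -0.46 and -1.19, within the cloud of other genes called different (dark grey) or not (light grey).

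Markers of cell types, some of them types in which miR-181 is known, did not all move with it. The leukocyte list, which includes Mir142, Mir150 and Mir223, had summed levels of 3941 CPM in replicate 1 and 5075 CPM in replicate 2. None of its 7 genes was at 0, and of 6 tested 3 were called lower in replicate 2 and 3 higher. Mir150, among the 3 called higher, was not called with the hairpin GC correction (log2 ratio 0.07). The endothelial pair Mir126a and Mir126b had 74842 and 64797 CPM, with Mir126a called lower (log2 ratio -0.39) and Mir126b not called. The neuronal list of 10 genes had 960 and 423 CPM, with 2 of 4 tested genes called lower and none higher, and Mir124a-1, Mir124a-2, Mir124a-3, Mir9-2 and Mir9-3 at 0 in both libraries. Of the 3 erythroid genes 2 were called lower and none higher. Of the 4 neuroendocrine genes 3 were called lower, with a median log2 ratio over the list of -0.54, while Mir375, which carries its sum, had a log2 ratio of 0.04, called higher here but lower with no count minimum (-0.12) and with the hairpin GC correction (-0.40), so its direction depends on the scaling. Mir7-2, among the 3 called lower, was not called with library size scaling (log2 ratio -0.21). Of the smooth muscle and pericyte pair Mir143 was called lower (log2 ratio -0.97) and Mir145a higher (1.17). The part of these cell types in the lower miR-181 counts of replicate 2 was not tested. Nor was that of reads mapping to several places, which held 29.8% of all reads in replicate 1 and 21.5% in replicate 2. Unmapped reads held 26.4% and 51.9%, so these are not shares of mapped reads. Beside the sense gene counts, they were 3664429 to 4494857 in replicate 1 and 2220642 to 2078824 in replicate 2. In whole tissue, fewer cells of a type and less of a microRNA per cell cannot be told apart.

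The genes nearest to the tested members in the levels of both libraries were, by distance in log2 CPM over 2 values, Mir15a for Mir181c (1376 and 1282 CPM, distance 0.20) and Mir106b for Mir181d (1194 and 794 CPM, distance 0.27). For Mir181b-2 it was Mir369 (449 and 226 CPM, distance 0.27) and for Mir181a-1 Mir362 (98.3 and 53.4 CPM, distance 0.21). With 2 libraries this likeness is a description of level. On the strand opposite to each of the 6 genes, 0 reads were counted in both libraries, which does not exclude levels below the detection floor of 3 counts.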

How the data were processed

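The deposited tables hold raw read counts per microRNA gene, 1 table for each library, in a strand-blind column and in a column per strand, as the file layout shows. The deposited text names assembly mm10 and annotation GENCODE M21. The sources used here do not give the aligner or counter. All 2202 identifiers matched M21 microRNA genes. The strand column with the larger gene total was taken as sense. Reads that name no gene (unmapped, mapping to several places, outside genes, ambiguous: 26.4%, 29.8%, 7.16% and 0% in replicate 1, 51.9%, 21.5%, 6.46% and 0% in replicate 2) were left out of library sizes. The rule for the members uses names only, but the members, lists and tests were chosen with earlier results of these data known. Genes named are the 6 members, the nearest gene of each tested member, genes that overlap them, the 3 highest copy families and genes of the marker lists. A fit of library against library has no residual degrees of freedom in edgeR's quasi-likelihood test, so an exact binomial test was used. It was tested on simulated counts with counting noise only (338 genes), where it called 93 of 93 genes with a 4-fold change, 77 of 99 with a 1.4-fold change and 4 of 146 with none. Software was Python 3.11.15 (pandas 2.3.3, SciPy 1.17.1, NumPy 2.4.6, matplotlib 3.10.9) and R 4.3.3 (DESeq2 1.42.0, edgeR 4.0.16).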

Additional observations from a re-analysis of the deposited data

How the results depend on the processing

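Alternatives covered the library total, the strand-blind column, hairpin length, each library alone, scaling by library size or DESeq2 size factors, count minimums of 5, 50 or none, a hairpin GC correction (linear) and the edgeR exact test. The log2 ratios of the 4 tested genes stayed below 0 in all 8 alternatives, from -0.67 to -0.27 for Mir181c, -0.89 to -0.54 for Mir181d, -1.06 to -0.70 for Mir181b-2 and -1.36 to -0.98 for Mir181a-1. Their calls held in 7 of the 8 and were lost with the edgeR exact test, which called 0 of the 4 (0 at an unadjusted p under 0.05) and 2 of 333 genes in all (17 unadjusted). With the GC correction Mir181c moved to -0.67, next to Mir181d at -0.75. Library size alone moved the median log2 ratio of all 333 genes from 0.01 to 0.19. Without a count minimum all 6 genes were called lower, among 167 of 749 tested genes called lower and 299 called in either direction. That setting also changed the TMM scaling, with a log2 shift against library size of -0.35 in place of -0.19. The summed level was 831 CPM with all reads as the total, where replicate 1 stood 2.50-fold above replicate 2 in place of 1.37-fold, and 3434 CPM in the strand-blind column. With 1 library alone the summed level ran from 2360 to 3243 CPM, the chromosome 8 share from 82.9% to 86.3%, the chromosome 2 share from 11.6% to 13.9% and the chromosome 1 share from 2.06% to 3.15%. The ratio of Mir181a-1 to Mir181b-1 ran from 10.8 to 24.3, that of Mir181b-2 to Mir181a-2 from 48.6 to 189 and that of Mir181c to Mir181d from 1.01 to 1.22. No paired analysis was possible because the libraries form a single group. The 3 and 4 counts of Mir181a-2 and Mir181b-1 in replicate 2 limit every statement on these genes.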
